A study of Mus musculus with 4 samples.

Results

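The core autophagy machinery is the set of proteins that start, build and close the autophagosome, and it was followed here at the RNA level in mouse tumors grown from cells labelled as lacking Atg5. The list holds 36 genes named for their role in initiation, lipid transfer, lipid kinase activity, conjugation, the LC3 family, fusion and transcription. The rule that lists them uses names and roles; no measured value enters it, although earlier results of these tumors were known when it was written. Probe sets annotated to exactly 1 gene symbol represented 31 of the 36 genes, among 12393 genes on the array, and each gene took its value from its probe set of highest mean signal. Atg9a, Atg4a, Atg4c, Rubcn and Epg5 had no such probe set and were not analysed here.

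The tumors grew under the skin of nude mice (NCR Nu/Nu) injected with iBMK cells, an immortalized epithelial line from baby mouse kidney. All the injected cells had the genotype ATG5-/- and carried Bcl-2. In 2 tumors the cells expressed p62-EGFP, which is the cargo receptor p62 joined to the fluorescent marker EGFP. In the other 2 they expressed EGFP not joined to p62. Transcript of the p62 gene, Sqstm1, was read in these 2 tumors as well, at 975.8 and 1156.1. The labels do not give the age of the mice, the number of independent cell clones, the promoter of either transgene, or whether tumors of 1 group had different hosts, so the p-values measure only the spread between these tumors. Each tumor was measured on 1 array, in MAS5 signal units on a linear scale. Whole tumors were measured, so fewer cells of a type and less RNA per cell cannot be told apart, and vessels, blood cells and connective tissue of the host contribute RNA that is not labelled as Atg5-deficient.

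In autophagy, the ULK1 kinase complex starts a membrane cup, ATG9 vesicles and ATG2 supply it with lipid, and the class III PI3-kinase marks it with a phosphoinositide that WIPI proteins read. A chain of ubiquitin-like reactions then attaches the LC3 and GABARAP proteins to the lipid of the growing membrane. ATG5 is part of the ligase of that last step, so without it the membrane is not decorated and p62, normally degraded with its cargo, accumulates. Transcript levels of the machinery say how much of each part could be made, not how much autophagy takes place.

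By the brightest probe set of each gene, most of these transcripts differed little in measured level between p62-EGFP and EGFP tumors. The exceptions were few: Rb1cc1, Becn1 and Gabarap read higher and Tfeb and Atg2a lower in each p62-EGFP tumor, and none passed the test. This list depends on the probe set. A dimmer Atg7 probe set had a log2 difference of -0.87 and a dimmer Vmp1 probe set 0.48, both without overlap. Becn1 averaged 0.12 over its 4 probe sets. Of the 31 measured members, 30 were bright enough to be tested, that is, at or above the 40th percentile of mean log2 signal over all probe sets; Atg10 fell below it. Differences are given as p62-EGFP minus EGFP on the log2(signal + 16) scale, which understates the change of dim transcripts. The median difference of the 31 members was 0.004, beside 0.03 over all genes on the array. Among tested members 25 lay within 0.3 of zero (83.3%), as did 62.2% of all 7846 tested genes. A difference of more than 0.5 in size was measured for 4 members (13.3%), Rb1cc1, Becn1, Tfeb and Atg2a, and for 17.3% of all tested genes.

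No member passed the test over all 13576 tested probe sets (limma, Benjamini-Hochberg adjusted p threshold of 0.05), where 12 probe sets or 0.0884% passed. At an unadjusted p below 0.05, 2 members were higher, Rb1cc1 and Gabarap, and 2 were lower, Tfeb and Atg2a; the background of tested genes was 8.5% higher and 6.3% lower. For 5 of the 30 members (16.7%, background 26.4%) each p62-EGFP tumor exceeded each EGFP tumor, and for 5 (16.7%, background 22.1%) each lay lower. The groups overlapped for the other 20. These shares are close to or under the background and are no result about the list. The member intervals were wide: with 2 tumors a group, the 95% interval of Ulk1, for example, ran from -0.61 to 0.36, so an overlap of groups does not show equal levels.

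**Figure D1:**
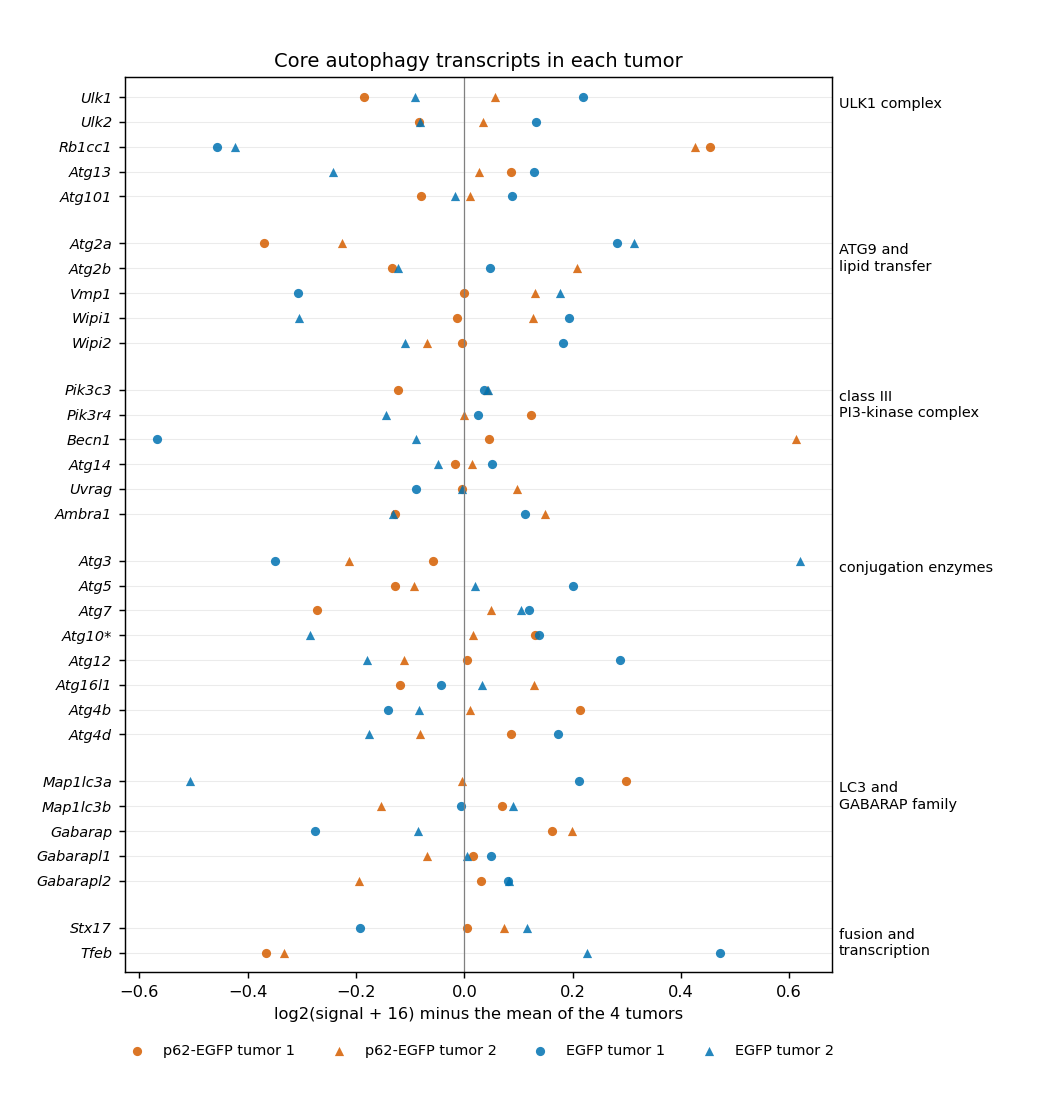
Signal of each measured member in the 4 tumors, as log2(signal + 16) minus the mean of that member over the tumors, in rows grouped by role. Orange marks are p62-EGFP tumors and blue marks EGFP tumors, circles tumor 1 and triangles tumor 2; the asterisk marks Atg10, which was too dim to be tested. Rb1cc1 has both orange marks on the right, Tfeb and Atg2a have both on the left, and for 20 tested members the colors mix.

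The largest difference within the list was that of Rb1cc1, which encodes FIP200, the scaffold that holds the ULK1 complex together. Rb1cc1 had signals of 319.2 and 313.0 in the p62-EGFP tumors, against 162.3 and 166.6 in the EGFP tumors. Replicates lay within a few units of each other and the groups were far apart. The log2 difference was 0.88 (SE 0.15, 95% interval 0.50 to 1.26), a ratio of mean signals of 1.92. A second Rb1cc1 probe set gave 131.3 and 110.2 in p62-EGFP tumors and 75.8 and 63.7 in EGFP tumors, a log2 difference of 0.67 (SE 0.19). Neither passed over all probe sets (limma adjusted p = 0.184 and 0.245). Rb1cc1 lies on chromosome 1, where the other tested genes had a median log2 difference of 0.15 and a range from the 25th to the 75th percentile of -0.12 to 0.33, so it stood above that range.

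The other subunits of the ULK1 complex had smaller differences than Rb1cc1 on every tested probe set, and the differences between subunits were not tested. Ulk1 and Ulk2 encode the kinases. Ulk1 read 219.7 and 262.7 in p62-EGFP tumors and 296.0 and 235.4 in EGFP tumors, with overlapping groups (log2 difference -0.13, SE 0.19). Its second probe set had a difference of 0.13, of opposite sign. Ulk2, at 302.5 and 329.7 against 354.1 and 302.8 in EGFP tumors, also overlapped (-0.05, SE 0.16), although its other probe sets gave 0.20 and 0.18, with both p62-EGFP tumors above both EGFP tumors. Atg13, the regulatory subunit that carries nutrient signals to the kinase, had a difference of 0.11 (SE 0.20) on its brightest probe set, with overlap. A second Atg13 probe set read 73.9 and 68 in p62-EGFP tumors and 64.2 and 46.6 in EGFP tumors, without overlap (0.29, SE 0.21, limma adjusted p = 0.538). Atg101, which stabilizes Atg13, had a difference of -0.07 (SE 0.16). By the brightest probe sets, 1 of the 5 tested members of this complex was higher without overlap and 0 were lower, with a median of -0.05. For this and the role counts below, the background is the 26.4% higher and 22.1% lower of all tested genes. Counts this small are no result about a role.

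Genes of lipid supply and phosphoinositide reading had 1 member apart between groups. Atg2a, a bridge-like protein that carries lipid into the growing membrane, had signals of 32.0 and 37.0 in p62-EGFP tumors and 59.4 and 61.1 in EGFP tumors. The groups did not overlap, with a log2 difference of -0.60 (SE 0.19, 95% interval -1.07 to -0.12), and it did not pass (limma adjusted p = 0.277). Its paralog Atg2b, at 95.7 and 125.6 against 110.6 and 96.6 in EGFP tumors, overlapped (0.07, SE 0.20). The difference between the paralogs was not tested. Vmp1, a scramblase of the endoplasmic reticulum, differed by 0.13 (SE 0.20) on its brightest probe set. A second Vmp1 probe set read 268.4 and 292.8 in p62-EGFP tumors and 193.4 and 198.5 in EGFP tumors, a difference of 0.48 (SE 0.16) without overlap (limma adjusted p = 0.286), so the call of overlap for Vmp1 depended on the probe set. The WIPI genes, whose products bind the phosphoinositide, had differences of 0.11 for Wipi1 (SE 0.22) and -0.07 for Wipi2 (SE 0.18), and for both of them the tested probe sets had both signs.

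Within the class III PI3-kinase complex, Becn1 stood apart. Becn1 encodes Beclin 1, the subunit on which activators and Bcl-2 compete. Becn1 read 469.5 and 703.2 in p62-EGFP tumors, against 301.6 and 426.7 in EGFP tumors. The lower p62-EGFP tumor was only a little above the higher EGFP tumor, and the log2 difference of 0.66 had an interval that crossed zero (SE 0.26, 95% interval -0.01 to 1.32, limma adjusted p = 0.347). This probe set carries Affymetrix's suffix for probes shared between transcripts. The other tested Becn1 probe set, without that suffix, read 490.6 and 500.7 in p62-EGFP tumors and 380.7 and 414.7 in EGFP tumors, a smaller difference of 0.31 (SE 0.14, limma adjusted p = 0.384). A pair of further Becn1 probe sets was too dim to be tested. They are of the type that can bind unrelated transcripts, and their differences were 0.17 and -0.67. The mean over all 4 probe sets was 0.12, so the size for Becn1 depended on the probe set, and on the tumors too, from 0.37 without p62-EGFP tumor 2 to 0.94 without p62-EGFP tumor 1.

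The catalytic and membrane-anchoring subunits of the same kinase were near zero. Pik3c3, the lipid kinase VPS34, had a difference of -0.08 (SE 0.16). Pik3r4, its anchoring subunit VPS15, read 145.9 and 132.6 in p62-EGFP tumors and 135.3 and 118.5 in EGFP tumors, which overlap (0.12, SE 0.17). Atg14, which directs the complex to autophagosome formation, had a difference of -0.002 (SE 0.18), and Uvrag, which replaces it in the endosomal form of the complex, 0.09 (SE 0.16). Uvrag read 222.4 and 239.7 against 208.5 and 222.3 in EGFP tumors, groups that do not overlap but are separated by less than the spread within either. Ambra1, which links Beclin 1 to ULK1 and to ubiquitin ligases, differed by 0.02 (SE 0.20). Of the 6 tested members, 2 were higher without overlap and 0 lower, with a median of 0.06.

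The conjugation enzymes attach ATG12 to ATG5 and LC3 to lipid. Atg5, the deleted gene, was measured by 3 probe sets. The brightest read 91.3 and 93.9 in p62-EGFP tumors and 118.7 and 102.8 in EGFP tumors, the next 64.7 and 63.6 against 73.2 and 89.4, and the third 49.2 and 40.2 against 56.5 and 51.2. All 3 were lower in both p62-EGFP tumors, by small margins that did not pass (log2 differences -0.22, -0.27 and -0.21; limma adjusted p = 0.574, 0.523 and 0.643). No source used here gives the position of these probes on the gene, and host cells add transcript, so the signal does not check the genotype.

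Atg7, the E1-like enzyme that activates both ATG12 and LC3, was also measured by 3 probe sets, all lower in both p62-EGFP tumors but by unequal amounts. The brightest read 53.5 and 70.8 in p62-EGFP tumors and 75.1 and 74.2 in EGFP tumors (-0.22, SE 0.20). Another read 42.4 and 33.0 against 77.5 and 86.5 in EGFP tumors, a difference of -0.87 (SE 0.20, limma adjusted p = 0.219), and the third 47.2 and 43.4 against 64 and 50.8 (-0.25, SE 0.20). Their mean was -0.45. The span of 0.65 between probe sets of Atg7 was the widest in the list among genes with several tested probe sets. Atg7 lies on chromosome 6, whose other genes had a median of -0.12.

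Atg3, the E2-like enzyme for LC3, was high in 1 tumor. It read 506.7 and 453.2 in p62-EGFP tumors and 411.0 and 819.6 in EGFP tumors, so the p62-EGFP values lay between the EGFP values (-0.27, SE 0.33). Without EGFP tumor 2 the difference was 0.21. EGFP tumor 2 was also the tumor richest in transcripts of NK and T cells and of macrophages. The summed signal of 8 NK and T cell markers was 71.6 and 76.4 in p62-EGFP tumors and 73.1 and 3092 in EGFP tumors. That of 12 macrophage markers was 2492 and 2516 in p62-EGFP tumors and 1359 and 11602 in EGFP tumors. The part of these cells in the Atg3 value was not tested. Atg4b, a protease that trims LC3 and GABARAP before conjugation, read 183.9 and 157.6 in p62-EGFP tumors and 140.3 and 146.7 in EGFP tumors, without overlap (0.22, SE 0.17, limma adjusted p = 0.562). Its second probe set overlapped, at 136.4 and 136.5 against 137.2 and 108.6 in EGFP tumors (0.14, SE 0.18), so this call too depended on the probe set. Its relative Atg4d had a difference of 0.004 (SE 0.20). Atg12, the ubiquitin-like partner of ATG5, differed by -0.11 (SE 0.22), and Atg16l1, which completes the ligase, by 0.01 (SE 0.17). Atg10, the E2-like enzyme for ATG12, was dim in all tumors, at 20.8 and 18.0 against 21.0 and 11.6 in EGFP tumors, and has no test. Of the 7 tested conjugation genes, 1 was higher without overlap and 2 lower, with a median of -0.11.

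**Figure D2:**
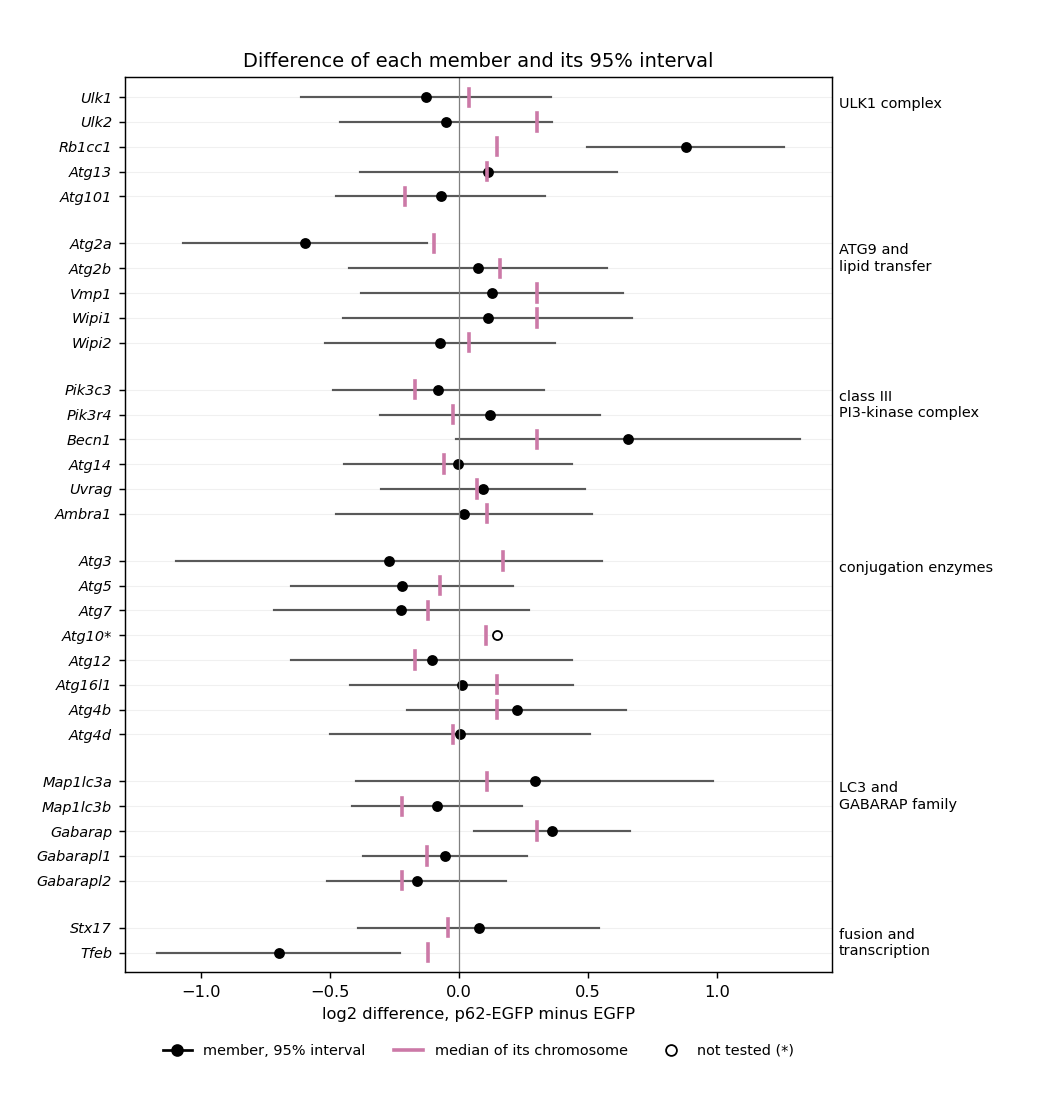
Log2 difference, p62-EGFP minus EGFP, of each measured member (points) with its 95% interval from the limma fit (lines), grouped by role, and the median difference of the other tested genes on the same chromosome (pink ticks). The open point is Atg10, which was not tested. The intervals of Rb1cc1, Gabarap, Tfeb and Atg2a lie on 1 side of zero before adjustment for the number of probe sets; those of the other 26 tested members include it.

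The LC3 and GABARAP proteins are the ubiquitin-like tags that end on the autophagosome membrane, where p62 binds them. Gabarap was the member of this family with the clearest separation, at 1190.4 and 1221.6 in p62-EGFP tumors, against 874.6 and 1000.4 in EGFP tumors. The log2 difference was 0.36 (SE 0.12, 95% interval 0.06 to 0.66), a ratio of means of 1.29, and it did not pass (limma adjusted p = 0.294). Gabarapl2, known also as GATE-16, was lower in both p62-EGFP tumors, at 726.7 and 619.7 against 753.1 and 754.1 in EGFP tumors, a small difference of -0.16 (SE 0.14, limma adjusted p = 0.605). Gabarapl1 read 654.9 and 617.3 in p62-EGFP tumors and 670.7 and 650.0 in EGFP tumors, which overlap (-0.05, SE 0.13). Its second probe set also overlapped, with a difference of opposite sign (0.11, SE 0.20).

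Map1lc3b encodes LC3B, the form most used to mark autophagosomes. It read 1027.5 and 878.0 in p62-EGFP tumors and 973.6 and 1042.8 in EGFP tumors, with overlap and a log2 difference of -0.08 (SE 0.13, 95% interval -0.41 to 0.25). The other tested Map1lc3b probe sets gave -0.08 and 0.01, so 3 probe sets placed this transcript close to zero. Map1lc3a, encoding LC3A, varied more between replicates, at 544.6 and 438.9 in p62-EGFP tumors and 512.4 and 305.0 in EGFP tumors (0.29, SE 0.27). EGFP tumor 2, low for Map1lc3a, was also low for most markers of the labelled epithelial cell. The summed signal of 7 such markers was 1463 and 2157 in p62-EGFP tumors and 1483 and 695.1 in EGFP tumors. Epcam, an epithelial adhesion molecule, read 360.7 and 660.3 in p62-EGFP tumors and 351.0 and 108.9 in EGFP tumors, and the keratin Krt18 544.6 and 627.1 against 729.6 and 253.9. The part of tumor cell content in the Map1lc3a value was not tested.

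Tfeb, the transcription factor that switches on lysosomal and autophagy genes when nutrients are short, was the lowest member of the list. It read 47.4 and 48.8 in p62-EGFP tumors and 97.3 and 79.6 in EGFP tumors. The groups were well apart, with a log2 difference of -0.70 (SE 0.19, 95% interval -1.17 to -0.23) that did not pass (limma adjusted p = 0.240). A single probe set measured it. Tfeb lies on chromosome 17, whose other tested genes had a median of -0.12 and a range from the 25th to the 75th percentile of -0.32 to 0.08. Mitf, a factor of the same family, read 81.8 and 77.8 against 107.6 and 159.9 in EGFP tumors, also without overlap (-0.62, SE 0.22, limma adjusted p = 0.316). These values are from the brighter of 2 Mitf probe sets, and the highest is that of the macrophage-rich EGFP tumor 2. Mitf lies on chromosome 6, whose other tested genes had a median of -0.12. The part of host cells or of the chromosome in the Mitf values was not tested. Stx17, the SNARE that lets the closed autophagosome fuse with the lysosome, overlapped between groups on each of 4 probe sets, with differences from 0.04 to 0.26.

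TFEB and its relatives bind the letters CACGTG, the core of the CLEAR element, in promoters of lysosomal and autophagy genes, so the promoters of the members were searched for it after the lower Tfeb signal had been seen. RefSeq promoters (GRCm38.p6, from 250 bases before to 50 after each start site) were at hand for 29 of the 36 members; Rb1cc1, Becn1, Map1lc3a, Pik3c3, Atg12, Atg16l1 and Epg5 had none in the table. CACGTG, which reads alike on both strands, occurred in those of 5 members (17.2%) and of 8.09% of 27025 genes. The 4 measured members with a match were Atg3, Atg5, Atg7 and Atg14, the fifth being Rubcn. Their log2 differences were -0.27, -0.22, -0.22 and -0.002. Most members under zero had no match: it occurred in 4 of the 13 under zero and 0 of the 12 over zero. Atg2a, at -0.60, was among those without it. The difference between these shares was not tested. The same split by sign was not made for all genes, so these counts are no result about the members. Atg5, among the 4, is the gene labelled as deleted. The signs of Atg3 and Atg14 are not stable: without EGFP tumor 2 the difference of Atg3 was 0.21, and with median centring that of Atg14 was 0.04. A match is a description of these letters and no evidence of binding, and none of the 4 differences passed the test. The 4 promoters follow, with CACGTG in capitals; it starts 94 bases before the start site in Atg3, which holds it at 2 places, 14 before in Atg5, 132 before in Atg7 and 1 before in Atg14.
Atg3, chr16:45158579-45158878, plus strand: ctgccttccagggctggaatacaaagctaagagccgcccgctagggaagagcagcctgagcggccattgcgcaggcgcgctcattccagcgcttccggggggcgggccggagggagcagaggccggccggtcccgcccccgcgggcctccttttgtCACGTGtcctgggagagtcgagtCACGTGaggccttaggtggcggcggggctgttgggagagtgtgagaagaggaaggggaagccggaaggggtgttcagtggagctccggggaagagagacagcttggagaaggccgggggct
Atg5, chr10:44268089-44268388, plus strand: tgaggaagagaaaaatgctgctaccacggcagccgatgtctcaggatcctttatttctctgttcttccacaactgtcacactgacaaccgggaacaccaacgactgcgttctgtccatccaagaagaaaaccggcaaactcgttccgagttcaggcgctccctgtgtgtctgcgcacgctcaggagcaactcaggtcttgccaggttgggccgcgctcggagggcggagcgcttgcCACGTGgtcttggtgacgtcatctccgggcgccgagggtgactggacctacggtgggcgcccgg
Atg7, chr6:114670846-114671145, plus strand: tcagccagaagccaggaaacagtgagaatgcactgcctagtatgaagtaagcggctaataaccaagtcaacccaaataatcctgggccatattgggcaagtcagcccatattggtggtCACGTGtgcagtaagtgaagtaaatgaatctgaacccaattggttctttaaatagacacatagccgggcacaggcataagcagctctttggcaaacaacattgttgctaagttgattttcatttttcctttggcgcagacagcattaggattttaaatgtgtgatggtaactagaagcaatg
Atg14, chr14:47568385-47568684, minus strand: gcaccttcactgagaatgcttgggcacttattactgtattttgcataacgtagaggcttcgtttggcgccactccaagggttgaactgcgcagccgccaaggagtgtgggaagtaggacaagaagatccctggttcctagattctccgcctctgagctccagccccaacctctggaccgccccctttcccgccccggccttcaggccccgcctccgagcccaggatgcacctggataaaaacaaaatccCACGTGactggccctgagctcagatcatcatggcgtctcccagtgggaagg

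Host cell markers moved with the groups beside the lower values of Tfeb and Atg2a and of the Atg7 probe sets. The summed signal of 6 mast cell markers was 201.5 and 125.1 in p62-EGFP tumors and 667 and 555 in EGFP tumors, with 5 of the 6 lower without overlap; of the 2 brightest, Tpsab1 read 32.1 and 20.4 against 301.2 and 159.5 in EGFP tumors, and Kit, the exception, 97.3 and 73.3 against 55.6 and 74.3. For 8 endothelial markers the sums were 156.9 and 205 in p62-EGFP tumors and 326.6 and 447.3 in EGFP tumors, 6 of the 8 lower without overlap. Among all tested genes 22.1% were lower and 26.4% higher without overlap. The marker counts in this paragraph also include dim genes that were not tested. No mast cell or endothelial marker was listed at 0, and 1 of the 6 and 3 of the 8 were below the brightness needed for a test. The part of these cells in the member values was not tested. Some epithelial, pericyte and smooth muscle markers were higher in both p62-EGFP tumors, beside the higher values of Rb1cc1, Becn1 and Gabarap. Of 7 epithelial markers 3 were higher without overlap and 0 lower, namely Epcam, Cldn7 and Krt19. Epcam separated narrowly, with a lower p62-EGFP value of 360.7 and a higher EGFP value of 351.0. Cldn7 was too dim to be tested, at 12.7 and 23.4 against 0.7 and 0.5 in EGFP tumors. The keratin Krt19 read 332.9 and 341.3 in p62-EGFP tumors and 93.6 and 156.2 in EGFP tumors. Krt19 and Cldn7 lie on chromosome 11, whose genes tended to read higher in p62-EGFP tumors. Cdh1, Krt8, Krt18 and Cldn4 overlapped between groups. Of 7 pericyte and smooth muscle markers 4 were higher and 3 lower without overlap, with summed signals of 596.5 and 653.6 in p62-EGFP tumors and 655.5 and 807 in EGFP tumors. The contractile genes Acta2 (237.5 and 310.6 against 180.7 and 173.7 in EGFP tumors) and Tagln (93.1 and 77.4 against 42.9 and 48.5) were among the higher. Rgs5, Pdgfrb and Myh11 were the lower ones. Rgs5 read 137.6 and 137.5 in p62-EGFP tumors and 319.2 and 367.1 in EGFP tumors. None of the 7 epithelial and 7 pericyte and smooth muscle markers was listed at 0. Only 5 of the 7 epithelial and 4 of the 7 pericyte and smooth muscle markers were bright enough for a test. The part of these cells in the member values was not tested either. For macrophage markers the groups overlapped on all 12. Skeletal muscle markers were high in p62-EGFP tumor 1 (summed signals 3719 and 52.3, against 45.9 and 498.2 in EGFP tumors).

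**Figure D3:**
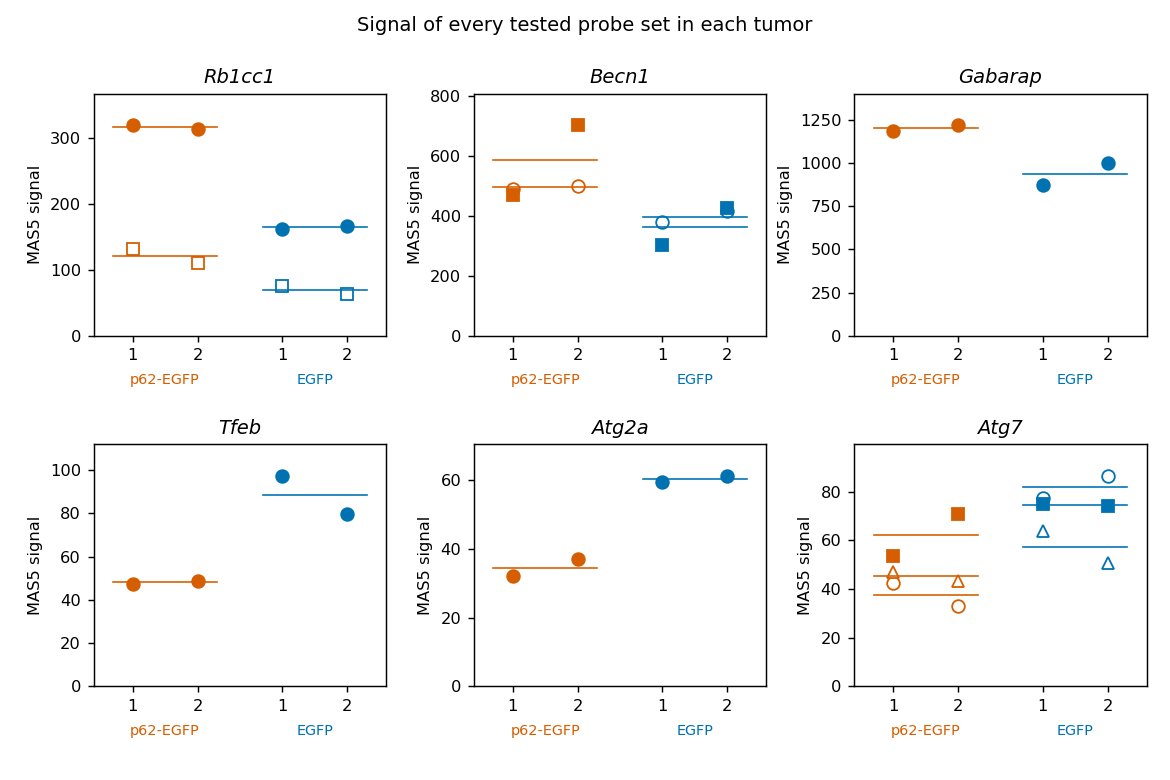
MAS5 signal, on a linear axis from 0, of every tested probe set of 6 members in each tumor, with p62-EGFP tumors in orange on the left and EGFP tumors in blue on the right. Filled marks are the brightest probe set of a gene, open marks its other probe sets, and horizontal lines group means of 2 tumors. Both Rb1cc1 probe sets separate the groups, and the Atg7 probe sets agree in direction but not in size.

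Several members lie on chromosome 11, whose genes tended to read higher in the p62-EGFP tumors. The 697 tested genes of chromosome 11 had a median log2 difference of 0.30, with a range from the 25th to the 75th percentile of 0.05 to 0.51, and 59.1% of them were higher without overlap, against 26.4% of all tested genes. Ulk2, Vmp1, Wipi1, Becn1 and Gabarap are the 5 tested members there. Of these, Becn1 and Gabarap (2 of 5) were higher without overlap, as were 3 of the 25 tested members elsewhere. Gabarap, at 0.36, stood near the chromosome's median. Becn1, at 0.66 on its brightest probe set and 0.31 on the other, stood above the range on the brightest and at the median on the other. Ulk2, at -0.05 on its brightest probe set, stood under the range, while its other probe sets, at 0.20 and 0.18, stood inside it. Vmp1 and Wipi1 stood inside its lower part on their brightest probe sets. The other Vmp1 probe set, at 0.48, stood near the top of the range. The other tested Wipi1 probe sets, from -0.16 to -0.03, stood under it. The part of the chromosome in these values was not tested.

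Chromosome 8 had a median of -0.22 and holds Map1lc3b and Gabarapl2. Less the median of their chromosome's other genes, these members had differences of 0.14 and 0.06, and Gabarap also 0.06. The same subtraction left Rb1cc1 at 0.73, Becn1 at 0.35, Tfeb at -0.58 and Atg2a at -0.50. It turned the sign of 12 of the 31 members, the largest of which had been 0.16 in size.

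**Figure D4:**
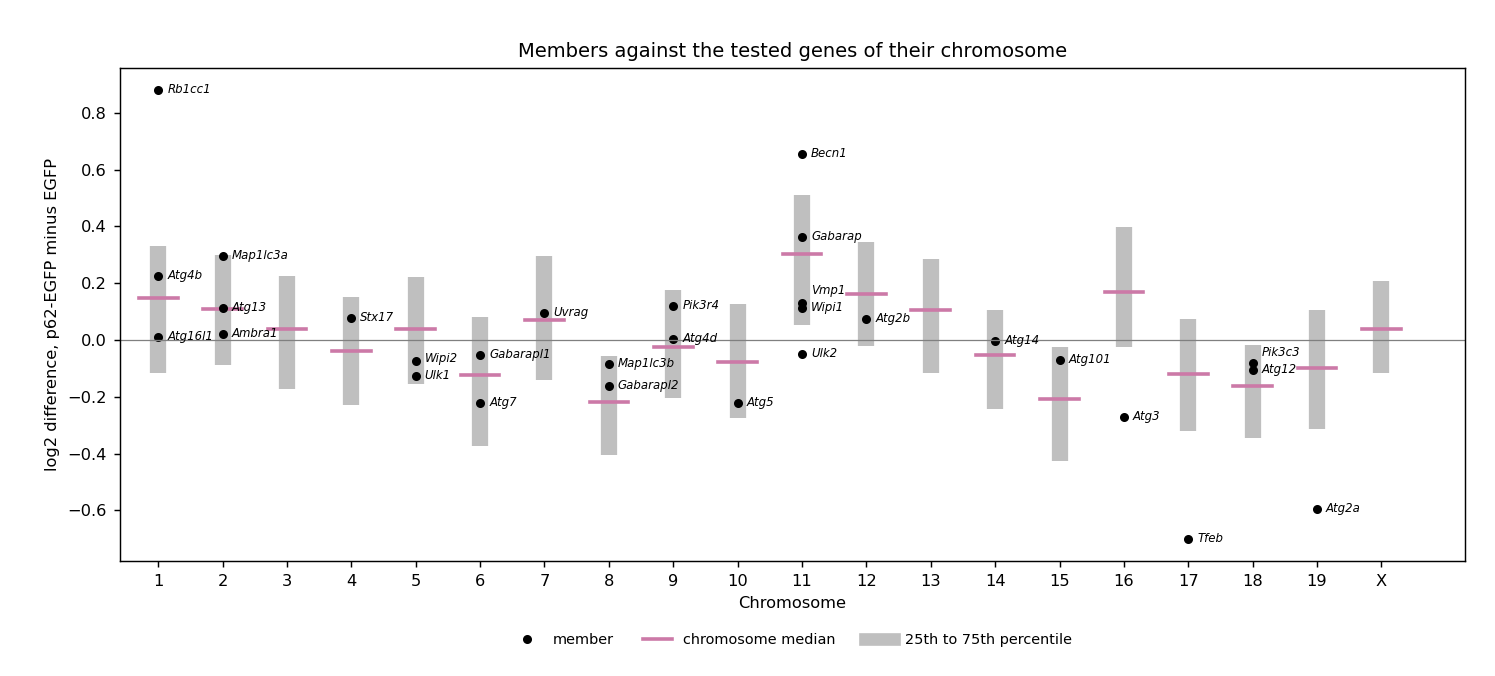
Log2 difference, p62-EGFP minus EGFP, of the 30 tested members (points) by chromosome, beside the median (pink) and the 25th to 75th percentile (grey) of the tested genes on each chromosome. Gabarap lies inside the range of chromosome 11, while Rb1cc1, Tfeb and Atg2a lie outside the ranges of chromosomes 1, 17 and 19.

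Which tumors entered the fit decided every call. With EGFP tumor 1 left out, Rb1cc1 was called higher (0.86, limma adjusted p = 0.00656), Atg3 lower (-0.75, adjusted p = 0.00878) and Map1lc3a higher (0.65, adjusted p = 0.0306). With EGFP tumor 2 left out, Rb1cc1 (0.90, limma adjusted p = 0.0109), Becn1 (0.90, adjusted p = 0.0312) and Gabarap (0.46, adjusted p = 0.0470) were called higher and Tfeb lower (-0.82, adjusted p = 0.0239). Both fits estimate the spread only from the p62-EGFP tumors, the pair that lay closer together (the replicate log2 difference had an SD of 0.273 across probe sets, and 0.604 for EGFP tumors), and they called 20.9% and 9.53% of all probe sets. Without either p62-EGFP tumor no member was called, with lowest limma adjusted p-values of 0.991 and 0.968, and with 2 and 1 members at an unadjusted p below 0.05. The fits without an EGFP tumor share both p62-EGFP tumors, whose Rb1cc1 signals were close together (319.2 and 313.0). The repeated call of Rb1cc1 is therefore no independent support. Without p62-EGFP tumor 1 the Rb1cc1 difference was 0.87, and without p62-EGFP tumor 2 it was 0.89.

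Genes around the core machinery were taken as 4 further lists, which were not compared with the core by a test. Of 16 other autophagy factors, 12 were tested and 0 passed (limma, lowest adjusted p = 0.219, 3 at an unadjusted p below 0.05), with a median log2 difference of -0.08. Without overlap, 2 were higher and 4 lower; for this and the next lists the background is the 26.4% higher and 22.1% lower of all tested genes. Wdr45b, a WIPI family member on chromosome 11, read 509.9 and 510.0 in p62-EGFP tumors and 309.5 and 342.2 in EGFP tumors (0.62, SE 0.14). Bnip3, a mitophagy receptor induced by hypoxia, read 342.3 and 396.2 against 226.1 and 172.4 (0.85, SE 0.19). Sh3glb1, which encodes the Beclin 1 partner Bif-1, was lower in both p62-EGFP tumors, at 817.4 and 768.5 against 855.2 and 1276.6 in EGFP tumors (-0.39, SE 0.21), the highest value being that of the macrophage-rich EGFP tumor 2.

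Of 11 partners of autophagosome fusion, 9 were tested, and 2 were higher and 2 lower without overlap, with a median of -0.07 and 0 past the threshold (limma, lowest adjusted p = 0.361, 0 at an unadjusted p below 0.05). Snap29, which pairs with syntaxin 17, read 160.0 and 153.5 in p62-EGFP tumors and 108.5 and 129.5 in EGFP tumors (0.36, SE 0.17). Vamp8, the lysosomal SNARE of the same bundle, went the other way, at 587.0 and 500.9 against 618.0 and 842.6 (-0.40, SE 0.20). Rab7, the late endosomal GTPase, read 1113 and 1073 against 1282 and 1301 in EGFP tumors (-0.24, SE 0.10), and Vps16, of the HOPS tether, had a difference of 0.29 (SE 0.17).

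Upstream nutrient control was measured by 16 tested genes of 20, with a median of -0.07, 1 higher and 3 lower without overlap and 0 past the threshold (limma, lowest adjusted p = 0.368, 0 at an unadjusted p below 0.05). Ddit4, an inhibitor of mTORC1 also known as REDD1, read 327.3 and 525.8 in p62-EGFP tumors and 268.9 and 281.8 in EGFP tumors (0.57, SE 0.25). Sesn2, a stress-induced leucine sensor, read 46.9 and 50 against 89.4 and 59.5 (-0.47, SE 0.23). Mtor itself overlapped (-0.24, SE 0.19), and the mTOR partner Mlst8 differed by -0.36 (SE 0.26).

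Cargo receptors, which hand substrates to LC3 and GABARAP, had 5 tested genes of 7 and a median log2 difference of 0.37. Of the 5, 3 were higher and 1 lower without overlap (background 26.4% and 22.1%), and 0 passed the threshold (limma, lowest adjusted p = 0.199, 2 at an unadjusted p below 0.05). Nbr1, a relative of p62, read 918.7 and 957.7 in p62-EGFP tumors and 622.1 and 524.7 in EGFP tumors (0.70, SE 0.14). Sqstm1, one of the 3 higher genes, is the gene of p62 itself, the protein whose EGFP fusion defines the p62-EGFP tumors. Its signal was 1432.7 and 1687.8 in p62-EGFP tumors and 975.8 and 1156.1 in EGFP tumors (0.54, SE 0.14). Any signal from the transgene and that of the mouse gene cannot be told apart here. Nbr1 and Sqstm1 both lie on chromosome 11, above its median of 0.30. Tollip differed by 0.37 (SE 0.19) and Tax1bp1 by -0.33 (SE 0.16).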

How the data were processed

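RNA of 4 tumors (2 p62-EGFP, 2 EGFP) was hybridized as biotin-labelled cRNA to Affymetrix Mouse Genome 430A 2.0 arrays, per the labels. The deposited intensity values are linear signals; the submitters' processing notes name MAS5 but no version or settings. The deposited signals had the same trimmed mean (150.04) on each array and were used unchanged. Of 22690 probe sets, 64 controls were left out, and 20380 had 1 gene symbol in the array annotation. Signals were taken as log2(signal + 16), filtered at the 40th percentile (5.60) and fitted with limma 3.58.1 (lmFit, then eBayes with a variance trend) under R 4.3.3. Tests were two-sided, and p-values were adjusted by Benjamini-Hochberg over 13576 probe sets. The fit was also run on simulated data, with equal spread in both groups and planted changes larger than any member's. That run does not show how well the fit finds differences as small as those reported here. Medians over members, chromosomes and markers were taken in Python 3.11.15 with pandas 2.3.3; chromosomes come from the RefSeq gene table of GRCm38.p6. The 4 arrays limit the precision, with 2 residual degrees of freedom.

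The members and lists were chosen with earlier results of these data known. All members may be named; values in every tumor are given for Atg5, the LC3 and GABARAP family, the 12 members of smallest p and, chosen after their values were seen, a few others set beside them. From each other pathway list up to 4 genes of smallest p are named, and from the marker lists mainly the brightest. The alternatives tried were array scaling, pseudocount, filter, variance model, replicate block, averaging of probe sets, subtraction of chromosome medians and leaving out each tumor.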

Additional observations from a re-analysis of the deposited data

How the results depend on the processing

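The median log2 difference of the members was 0.004 in the main fit. Across the alternatives it ran from -0.07 without EGFP tumor 2 to 0.05 without EGFP tumor 1. The filter, variance model and replicate block change only the test and cannot move this median. The count of members past the threshold was 0 with quantile normalization, median centring, a pseudocount of 1 or 64, no filter, a filter at the 60th percentile, no variance trend, probe set averaging and the replicate block (limma, lowest adjusted p from 0.136 to 0.287), and ran from 0 to 4 when 1 tumor was left out. The count over all probe sets was 12, against 7 with the 60th percentile filter, 6 with no filter and 0 to 2835 with 1 tumor left out. With a replicate block it was 37; the tumor numbers are not a pairing in the labels, and the replicate differences of the groups correlated at 0.08 across probe sets. Averaging all probe sets of a gene turned the sign of 5 members, each within 0.13 of zero: Ulk1, Ulk2, Wipi1, Wipi2 and Gabarapl1. The same averaging moved Becn1 to 0.12 (0.66 on its brightest probe set) and Atg7 to -0.45 (-0.22). Median centring and quantile normalization turned the sign of Atg14, which was at -0.002. Leaving out a tumor turned more signs: 8 without EGFP tumor 1, 8 without EGFP tumor 2 and 4 without each p62-EGFP tumor, among them members farther from zero. Without EGFP tumor 2, Atg3 was 0.21 (-0.27 with all tumors) and Map1lc3a -0.07 (0.29 with all). The pseudocount of 64 moved Atg2a to -0.34 and Tfeb to -0.44, and that of 1 to -0.79 and -0.86 (-0.60 and -0.70 with 16). The cause of these changes was not tested.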
